A study of Mus musculus with 40 samples.

Results

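The let-7 passenger strands are the 3p arms cut from the hairpins of the let-7 microRNA family. The count table of 1894 mature miRNA entries holds several of them, and 8 are described here by name, whatever their level. These members are mmu-let-7a-1-3p, mmu-let-7b-3p, mmu-let-7c-2-3p, mmu-let-7d-3p, mmu-let-7e-3p, mmu-let-7f-1-3p, mmu-let-7f-2-3p and mmu-let-7i-3p. The other let-7 3p arms in it, let-7a-2-3p, let-7c-1-3p and let-7g-3p, are not members. The 8 members were followed in brown fat, liver, gastrocnemius muscle and hypothalamus, in RNA pulled down on streptavidin (IP) and in total small RNA (input). Most of them lost ground to their own guide strand in the IP of every tissue, while no change of let-7b-3p against its guide passed the test in any tissue.

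A miRNA hairpin is cut by Dicer into a short duplex with a 5p and a 3p strand. One strand, the guide, is kept in an Argonaute protein and pairs with messenger RNAs through its seed, and the other, the passenger, is mostly released and degraded. In the let-7 family the guide is the 5p strand. It is abundant in differentiated tissues and is known for repressing Lin28, Hmga2 and Ras messages, so a read from a 3p arm reports a strand that is usually short-lived.

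The mature sequences, from RefSeq (GRCm38.p6), are shown because the members differ at few positions, which the comparisons among them refer to. Capitals mark the seed, bases 2 to 8 counted from the 5′ end.
let-7a-1-3p: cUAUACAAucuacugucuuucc
let-7c-2-3p: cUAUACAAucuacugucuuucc
let-7b-3p: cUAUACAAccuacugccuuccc
let-7f-1-3p: cUAUACAAucuauugccuuccc
let-7f-2-3p: cUAUACAGucuacugucuuuc
let-7d-3p: cUAUACGAccugcugccuuucu
let-7e-3p: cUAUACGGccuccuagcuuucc
let-7i-3p: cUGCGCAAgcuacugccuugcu
let-7b-5p, a guide: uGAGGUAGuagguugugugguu
The first 4 strands share the seed UAUACAA, and let-7f-2-3p, d-3p, e-3p and i-3p each have a seed of their own. let-7a-1-3p and let-7c-2-3p are the same 22 bases, and their counts differed by at most 4.04 in any library, so they are 1 sequence listed as 2 entries. The counts are fractional, and whether a read of this sequence was split between both entries or counted in full in each is not given in the sources used, so the level of the sequence may be that of 1 entry or of their sum. Against let-7a-1-3p, let-7b-3p differs by U9C, U16C and U20C, and let-7f-1-3p by C13U, U16C and U20C, with positions from the 5′ end and the base of let-7a-1-3p first. let-7b-3p and let-7f-1-3p thus share U16C and U20C and end in the same bases. let-7f-2-3p differs from let-7a-1-3p by A8G over its 21 bases.

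The members come from 5 places in the genome (GRCm38). let-7a-1-3p (chr13:48538188-48538209), let-7f-1-3p (chr13:48537833-48537854) and let-7d-3p (chr13:48536024-48536045) lie on the minus strand in hairpins that overlap an exon of the long non-coding RNA gene 6720427I07Rik. let-7c-2-3p (chr15:85706664-85706685) and let-7b-3p (chr15:85707379-85707400) lie on the plus strand in an exon of the non-coding transcript Lncppara. let-7e-3p (chr17:17830411-17830432, plus strand) is in an intron of Spaca6, let-7f-2-3p (chrX:151912403-151912423, plus strand) in an intron of Huwe1, which encodes a ubiquitin ligase, and let-7i-3p (chr10:122985642-122985663, minus strand) overlaps an exon of the transcribed pseudogene D630033A02Rik.

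The 40 libraries form 8 groups of 5, an IP and an input group in each tissue, from 10 male mice of 8 to 12 weeks on standard chow. The cross joined Tg(Ucp1-cre)1Evdr/J, a Cre recombinase driven by the brown fat gene Ucp1, with Tg(CAG-GFP,-Uprt)985Cdoe/J, a Cre-dependent transgene for the enzyme UPRT, and every mouse received 50 mg/kg of 4-thiouracil (4TU) by intraperitoneal injection, 4 times with 48 h between injections. UPRT turns 4TU into a nucleotide that can enter new RNA, whose thiol groups are then biotinylated for the pull-down. The labels give no genotype of single mice and no group without 4TU or Cre. The design asks which miRNAs are labelled, and whether labelled ones are found away from brown fat. Input and IP with the same replicate number come from the same mouse in 19 of 20 pairs, while brown fat replicate 5 is input from mouse 8 and IP from mouse 10. By their library names all IPs belong to pool 2 and all inputs to pool 1, so pool and type of library cannot be told apart.

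Library totals ran from 11928 to 921297 counts in the IPs and from 153036 to 5562487 in the inputs. Among the inputs, marker miRNAs fixed for each tissue were highest in their own tissue in every case (CPM, counts per 1000000 counted miRNA reads). The closest were the muscle markers, at 629900 CPM or more in muscle inputs and 293100 CPM or less in inputs of other tissues. That 293100 CPM was in brown fat input 1. The muscle markers were at 69010 CPM or more in all brown fat inputs and at 50610 to 256600 CPM in the brown fat IPs. Liver IP 4 held 16320 CPM of them, against 1339 CPM in the next liver IP. Hypothalamus input 4, the shallowest input, held 188900 CPM of the muscle markers, 22900 CPM of the liver markers and 177.5 CPM of the brown fat markers, against 2557, 1305 and 64.4 CPM in the next hypothalamus input, and values without it are given where it matters. The summed red blood cell markers were at 1298 to 6565 CPM in the muscle IPs and 154 to 442 CPM in the muscle inputs. The endothelial pair, both arms of miR-126a, was at 44.8 to 3030 CPM in the IPs and 2307 to 57150 CPM in the inputs over the 4 tissues. The leukocyte markers ran from 0 to 710 CPM in the IPs and 29.2 to 1504 CPM in the inputs. Their part in the results was not tested.

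By single entry let-7d-3p was the most abundant member of the inputs in every tissue, and let-7e-3p the least in brown fat, liver and muscle. let-7d-3p had 483 ± 146 CPM in brown fat, 174.5 ± 40.3 in liver, 94.4 ± 21.98 in muscle and 241 ± 66.6 in hypothalamus (SD, n = 5 libraries each). The entry let-7a-1-3p had 229 ± 56.4 CPM in brown fat, 110 ± 21.6 in liver, 35.98 ± 2.71 in muscle and 129 ± 43.8 in hypothalamus. The entries let-7a-1-3p and let-7c-2-3p summed to 457 CPM in brown fat, 219.8 in liver, 71.9 in muscle and 259 in hypothalamus, above let-7d-3p in liver and hypothalamus. let-7b-3p was rarer, at 64.9 ± 17.0 CPM in brown fat, 28.6 ± 11.02 in liver, 6.003 ± 1.24 in muscle and 33.2 ± 17.6 in hypothalamus. The order of tissues by CPM was brown fat, hypothalamus, liver and muscle for let-7d-3p, a-1-3p, c-2-3p, b-3p and f-2-3p, and the ranges of hypothalamus and liver inputs overlapped for each of those 5. let-7f-1-3p was at 43.3 ± 10.4 CPM in brown fat, 23.5 ± 3.23 in liver, 18.6 ± 6.58 in hypothalamus and 6.96 ± 1.18 in muscle. let-7e-3p stood highest in hypothalamus, at 34.8 ± 9.88 CPM, followed by 20.1 ± 7.39 in brown fat, 5.39 ± 2.96 in liver and 1.89 ± 0.172 in muscle. let-7i-3p varied most between mice, with 42.8 ± 37.2 CPM in hypothalamus, 39.7 ± 23.5 in brown fat, 14.1 ± 6.16 in muscle and 6.04 ± 4.17 in liver. These are bulk tissues, in which fewer cells of a type and less RNA per cell cannot be told apart.

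**Figure D1:**
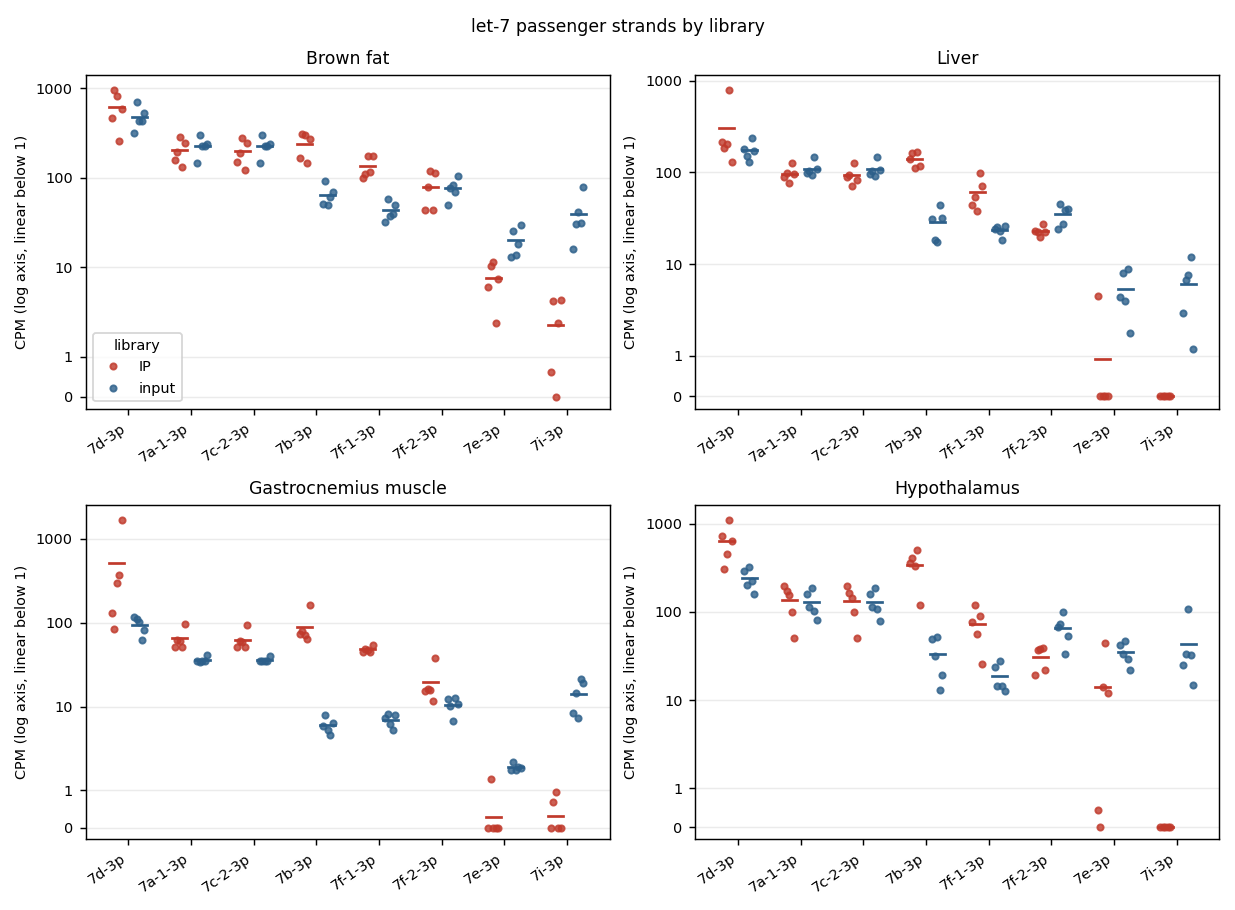
CPM of the 8 let-7 passenger strands in each library (points, log axis that turns linear below 1) and the group means (bars), with IP libraries in red and input libraries in blue, in 4 tissues. let-7b-3p lies higher in all 5 IPs than in any input in each tissue, and let-7i-3p lies lower in all IPs.

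let-7b-3p was the member whose level stood apart most clearly in the IPs. In brown fat it had 166, 309.9, 302.5, 147 and 269.7 CPM in IP libraries 1 to 5, against 51.8, 91.4, 49.3, 61.4 and 70.4 CPM in the inputs. In liver it had 141, 164, 111.5, 168 and 118 CPM in the IPs, against 31.3, 18.3, 17.5, 44.1 and 31.6 CPM in the inputs. Every IP was above every input in both tissues, as it was in the other two. In muscle the IPs held 72.8, 78.7, 71.9, 63.8 and 163 CPM, against 5.87, 7.90, 5.32, 4.59 and 6.34 CPM in the inputs. In hypothalamus the IPs held 358, 405, 333, 502 and 120.5 CPM, against 49.4, 31.7, 52.5, 13.1 and 19.3 CPM in the inputs. The rise was 2.99 on the log2 scale in brown fat (SE 0.29, adjusted p = 7.4e-08, edgeR quasi-likelihood test), 3.90 in liver (SE 0.38, adjusted p = 3.46e-09), 4.69 in muscle (SE 0.36, adjusted p = 4.93e-11) and 4.13 in hypothalamus (SE 0.42, adjusted p = 3.99e-06). It passed the threshold under all 16 alternatives in each tissue, at 1.88 or more in brown fat, 2.23 or more in liver, 3.81 or more in muscle and 3.31 or more in hypothalamus. Without hypothalamus input 4 the rise there was 3.97 (adjusted p = 8.66e-06, edgeR).

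let-7f-1-3p, the strand that shares the last bases of let-7b-3p, rose in the 3 tissues where it passed the filter on low counts. Its IPs in brown fat held 100.3, 111, 176, 116 and 177 CPM, against 32.3, 58.0, 37.1, 39.3 and 49.8 CPM in the inputs, without overlap. The muscle groups did not overlap either, at 44.2 to 54.6 CPM in the IPs and 5.29 to 8.10 CPM in the inputs, nor did the liver groups, at 37.9 to 98.1 CPM in the IPs and 18.1 to 26.3 CPM in the inputs. The log2 fold change was 2.80 in brown fat (SE 0.30, adjusted p = 2.87e-07, edgeR), 2.81 in liver (SE 0.37, adjusted p = 2.87e-07) and 3.75 in muscle (SE 0.36, adjusted p = 1.42e-09), and it stayed past the threshold under all 16 alternatives in each. In hypothalamus the strand did not pass the filter, and its 25.8 to 118.5 CPM in the IPs overlapped the 12.8 to 27.6 CPM of the inputs.

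let-7d-3p rose in all 4 tissues on the scale of the test, though its IP libraries scattered widely. In brown fat it had 469, 964, 825, 261.5 and 589 CPM in the IPs, against 315, 703, 429, 431 and 538 CPM in the inputs, and the groups overlapped. In liver the IPs held 213, 187, 202, 796 and 129 CPM, against a mean of 174.5 CPM in the inputs and 237 CPM in the highest. Only IP 4 was above that highest input, with 9.5 expected counts of the strand in a library of 11928. Liver IP 5 lay below all liver inputs, so by CPM the liver groups showed no clear rise. In muscle the IPs held 131, 83.7, 299, 367.5 and 1664 CPM, against 116, 109.6, 102, 62.8 and 81.5 CPM in the inputs, with IP 5 far above the rest and IP 2 inside the input range. In hypothalamus the IPs held 726, 311, 454, 1102 and 636 CPM, against 289.8, 204, 327, 222 and 162 CPM in the inputs, where only IP 2 fell inside the input range. The log2 fold change was 1.47 in brown fat (SE 0.29, adjusted p = 0.000212, edgeR), 1.87 in liver (SE 0.34, adjusted p = 2.82e-05), 2.44 in muscle (SE 0.33, adjusted p = 3.08e-07) and 2.11 in hypothalamus (SE 0.35, adjusted p = 0.000165). With total counts as the only scaling it was 0.36 in brown fat (adjusted p = 0.331) and 0.47 in liver (adjusted p = 0.322), and it passed in muscle and hypothalamus. On the scale of the test the rise was 1.87 in liver without IP 4, 2.08 in muscle without IP 5 and 2.20 in hypothalamus without input 4.

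For let-7a-1-3p, c-2-3p and f-2-3p the direction hung on the scaling between libraries. let-7a-1-3p averaged 203 ± 62.9 CPM in the brown fat IPs and 229 ± 56.4 CPM in the inputs (SD, n = 5 each), while its log2 fold change by TMM, which allows for the few very abundant miRNAs that fill the libraries, was 0.98 (SE 0.28, adjusted p = 0.00448, edgeR). With total counts as the only scaling it was -0.17. In liver the 3 strands were called higher at 1.42, 1.33 and 0.96 in the order named, but leaving out any 1 of the 5 liver inputs ended all 3 calls, with let-7a-1-3p at 0.58 to 0.76, let-7c-2-3p at 0.48 to 0.67 and let-7f-2-3p at -0.09 to 0.12. The liver call of let-7f-2-3p also ended without IP 2, 3 or 5 (0.84 to 0.91) and with the mouse as a block (0.93, adjusted p = 0.0582), and total counts put the 3 strands at -0.23, -0.32 and -0.76. In muscle let-7a-1-3p stood clear of the scaling, with 51.6, 62.9, 61.0, 51.5 and 97.4 CPM in the IPs and 34.9, 34.4, 34.96, 34.9 and 40.8 CPM in the inputs. Those groups did not overlap, and the rise was 1.72 (SE 0.32, adjusted p = 3.57e-05, edgeR), called under all 16 alternatives. In hypothalamus let-7a-1-3p missed the threshold at 0.92 (SE 0.42, adjusted p = 0.0623, edgeR), and passed it at 1.13 without IP 4 and at 1.02 without IP 5.

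let-7i-3p nearly vanished from the IPs. In brown fat it had 0.612, 4.18, 0, 2.37 and 4.29 CPM in IP libraries 1 to 5, against 16.0, 30.5, 42.1, 31.5 and 78.4 CPM in the inputs, a fall to 3 rounded counts in the IPs, against 268 in the inputs, or 11.7-fold on the TMM scale (95% interval 3.95 to 57.0), with adjusted p = 0.000181 in edgeR. It was at 0 in all 5 liver IPs and all 5 hypothalamus IPs, and 3 of the 5 muscle IPs were at 0, while it was counted in every input. With 0 rounded counts in the IPs, let-7i-3p was at least 5.57-fold lower in muscle, where the inputs held 298 counts, and at least 5.16-fold lower in hypothalamus, where they held 295, both on the TMM scale and with 3 counts over the group as the floor. On total counts these bounds were 11.6-fold in muscle and 8.53-fold in hypothalamus. In liver the inputs held 28 rounded counts and the IPs were too shallow for a bound above 1 on the TMM scale. let-7e-3p was also rarer in the brown fat IPs by CPM, with 2.37 to 11.5 in the IPs and 13.2 to 29.9 in the inputs, without overlap. On the TMM scale that difference was -0.25 (SE 0.40, adjusted p = 0.560, edgeR), so its direction was not settled, although total counts put it at -1.41. Its muscle IPs held 1 count in all and its liver IPs 0.5 expected counts, against 39.5 in the muscle inputs and 25 in the liver inputs. The intervals and bounds cover counting error only, since these are PCR reads without molecular identifiers.

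Counted over the family, 6 of the 8 strands were called higher and 1 lower in the brown fat IP, where 36.7% of the 305 entries tested were higher and 43.3% lower. In liver 6 of the 6 strands that passed the filter were higher (28.5% of 200 entries higher, 46.0% lower). In muscle 6 were higher and 1 lower of the 7 that passed (28.7% of 268 higher, 56.3% lower). In hypothalamus 2 of the 4 that passed were higher (28.2% of 273 higher, 47.3% lower), with 3 called without input 4, 4 without IP 4 and 5 without IP 5. The filter left out let-7e-3p and let-7i-3p in liver and hypothalamus, let-7e-3p in muscle, and let-7f-1-3p and let-7f-2-3p in hypothalamus. The fall of let-7i-3p in hypothalamus thus enters neither the counts nor the median there. These counts list let-7a-1-3p and c-2-3p as 2 entries. With their shared sequence taken once, 5 of 7 were higher in brown fat, 5 of 5 in liver, 5 of 6 in muscle and 2 of 3 in hypothalamus. The strands' median log2 fold change among those that passed was 1.09 in brown fat, 1.65 in liver, 1.72 in muscle and 1.51 in hypothalamus, and that of all entries was -0.34, -0.78, -1.41 and -1.04 in the same tissues. Relative to that median entry, which lay at -1.44, -2.39, -2.29 and -1.83 with total counts, let-7b-3p stood 3.33 higher in brown fat, 4.69 in liver, 6.10 in muscle and 5.18 in hypothalamus. Without any scaling beyond total counts, 2 strands lay above all inputs in all IPs of brown fat (13.1% of entries did), 2 in liver (11%), 4 in muscle (17.9%) and 1 in hypothalamus (16.1%). The 4 in muscle include both let-7a-1-3p and c-2-3p. Below all inputs lay 2 strands in brown fat (51.8%), 1 in liver (60.0%), 2 in muscle (55.6%) and 1 in hypothalamus (45.1%).

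By the median the guides moved much further. let-7b was an exception outside brown fat: let-7b-3p rose by 3.90 in liver, 4.69 in muscle and 4.13 in hypothalamus, and let-7b-5p by 3.44, 4.83 and 4.15. In brown fat they rose by 2.99 and 3.68. All 9 let-7 and miR-98 guides were called higher in the IP of each tissue, with a median log2 fold change of 3.53 in brown fat, 3.44 in liver, 4.83 in muscle and 3.94 in hypothalamus. The ratio of passenger to guide within a library, which needs no scaling between libraries, therefore gives the plainer reading. let-7b, d, e and i have a single hairpin each, so their ratio compares the strands of 1 hairpin, whereas the let-7a, c and f guides are also made from other hairpins.

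In the inputs the passenger made up a share of its pair that differed widely by hairpin. let-7d-3p held the highest share, at 15.5% ± 4.23 of both arms in brown fat, 14.03% ± 1.32 in liver, 10.95% ± 3.10 in muscle and 10.4% ± 0.983 in hypothalamus (SD, n = 5 each). let-7a-1-3p was at 2.26% to 3.495% on average and let-7e-3p at 3.08% to 5.04% over the 4 tissues. let-7b-3p was at 1.25% to 1.82%, and let-7f-1-3p, let-7f-2-3p and let-7i-3p were each below 0.4%.

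**Figure D2:**
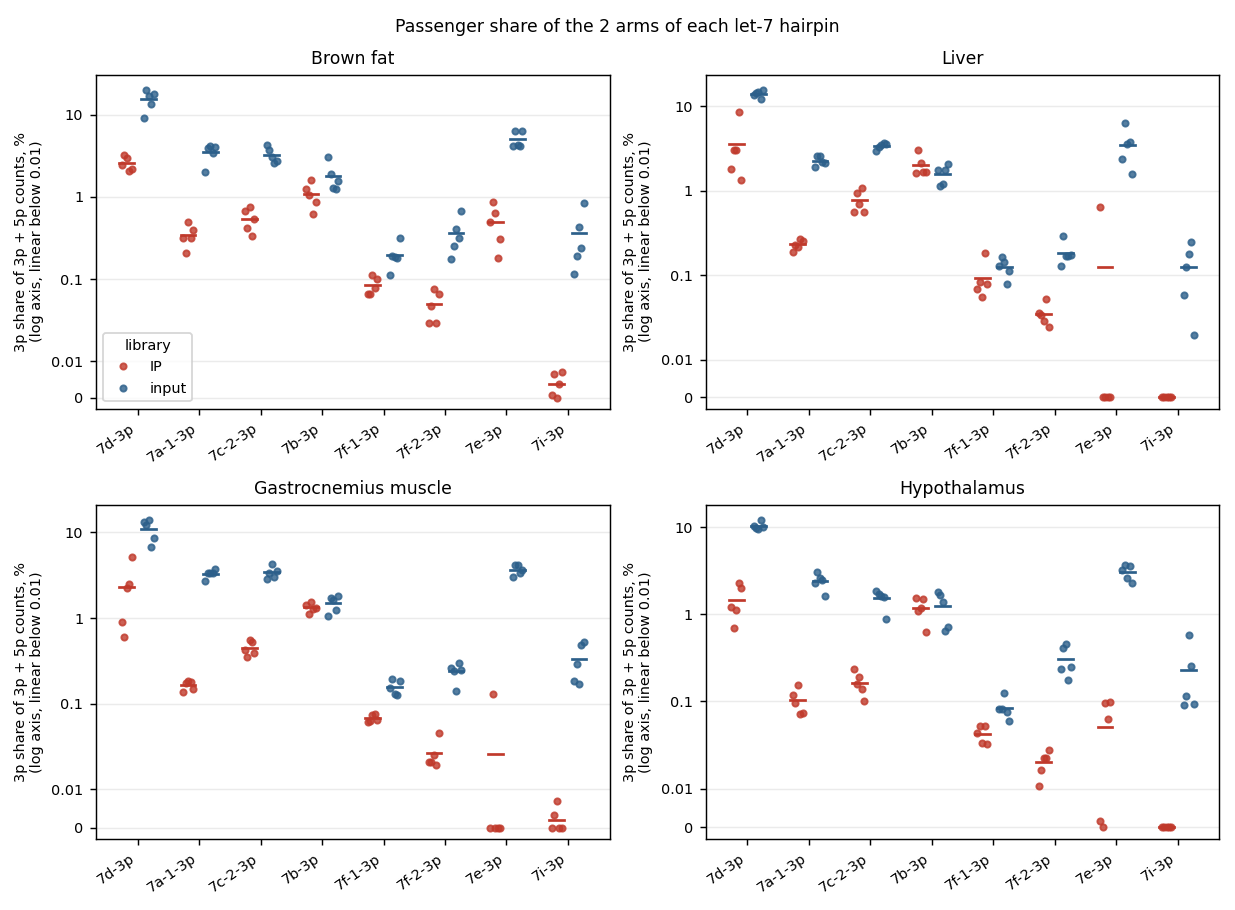
Share of the 3p arm in the 3p plus 5p counts of each let-7 hairpin, in percent (log axis that turns linear below 0.01), for every IP library (red) and input library (blue), with group means as bars. let-7d-3p falls to 2.59% on average in the brown fat IPs, against 15.5% in the inputs, whereas the let-7b-3p points of both groups overlap in each tissue.

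In the IPs the share of let-7d-3p was lower in every tissue. It was 2.43%, 3.26%, 2.98%, 2.06% and 2.22% in brown fat IPs 1 to 5, against 9.18%, 20.1%, 16.8%, 13.5% and 17.8% in the inputs. Liver gave 1.80%, 3.03%, 3.06%, 8.61% and 1.33% in the IPs, where IP 4 has only 11928 counts, against 12.0% to 15.5% in the inputs. No IP reached the lowest input in either tissue. The log2 change of the ratio of let-7d-3p to its guide was -2.75 in brown fat (SE 0.29, adjusted p = 1.63e-06, edgeR), -2.61 in liver (SE 0.34, adjusted p = 2.29e-05), -2.73 in muscle (SE 0.48, adjusted p = 0.000167) and -3.05 in hypothalamus (SE 0.35, adjusted p = 2.28e-06). let-7a-1-3p lost more, with 0.320%, 0.210%, 0.492%, 0.319% and 0.396% in the brown fat IPs, against 1.998%, 3.90%, 4.13%, 3.45% and 4.00% in the inputs. Its ratio fell by 3.38 in brown fat (SE 0.32, adjusted p = 8.79e-07, edgeR), 3.32 in liver (SE 0.20, adjusted p = 3.89e-08), 4.37 in muscle (SE 0.20, adjusted p = 4.64e-11) and 4.53 in hypothalamus (SE 0.33, adjusted p = 3.46e-08). let-7c-2-3p, with the same reads but the let-7c guide below it, gave -2.64, -2.31, -3.0 and -3.18 in that order of tissues, and let-7f-2-3p -2.81, -2.65, -3.30 and -3.94. These 4 strands stayed past the threshold under all 14 alternatives in each tissue.

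let-7i-3p and let-7e-3p had few counts left in the IPs. let-7i-3p had 4 expected counts beside 142449 counts of its guide in the brown fat IPs, and its ratio fell by 6.93 there (SE 0.83, adjusted p = 4.7e-06, edgeR). With 0 counts beside 39783 guide counts in the hypothalamus IPs, its share was at most 0.00754%, against 0.227% ± 0.210 in the inputs, and with 0 beside 6956 in the liver IPs at most 0.0431%, against 0.126% ± 0.0918. The liver call of let-7i-3p was weak (adjusted p = 0.0404, edgeR), ended without liver input 2, 3 or 4 or liver IP 3 or 5 (adjusted p = 0.0506 to 0.110), and was -0.72 with adjusted p = 0.400 in limma with the mouse as a block. let-7e-3p was at 0.489%, 0.859%, 0.644%, 0.179% and 0.303% in the brown fat IPs, against 4.21%, 6.32%, 4.27%, 4.14% and 6.27% in the inputs, a change of -3.49 (SE 0.40, adjusted p = 2.9e-06, edgeR). In hypothalamus its share was 0 to 0.0980% in the IPs and 2.32% to 3.66% in the inputs, a change of -6.25 (SE 0.58, adjusted p = 3.85e-07, edgeR).

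let-7b-3p was the exception in each tissue. Its share in brown fat was 1.25%, 1.06%, 1.62%, 0.620% and 0.867% in the IPs, against 3.09%, 1.90%, 1.30%, 1.25% and 1.55% in the inputs, with overlap. In muscle it was 1.43%, 1.12%, 1.53%, 1.28% and 1.31% in the IPs, against 1.06%, 1.74%, 1.62%, 1.25% and 1.79% in the inputs, so the IP values lay within the range of the inputs. It ran from 1.61% to 2.99% in the liver IPs and 1.13% to 2.05% in the inputs, and from 0.634% to 1.52% in the hypothalamus IPs and 0.643% to 1.81% in the inputs, again with overlap. The ratio to its guide differed by -0.73 in brown fat (SE 0.33, adjusted p = 0.0672, edgeR), 0.38 in liver (SE 0.25, adjusted p = 0.251), -0.17 in muscle (SE 0.24, adjusted p = 0.663) and -0.12 in hypothalamus (SE 0.40, adjusted p = 0.837). In brown fat it passed the threshold without input 4 (-0.84, adjusted p = 0.0479) or without IP 3 (-0.89, adjusted p = 0.031), so a fall there was near the limit of these libraries. let-7f-1-3p lay between, lower by 1.17 in brown fat (SE 0.35, adjusted p = 0.00768, edgeR), 0.78 in liver (SE 0.28, adjusted p = 0.0378), 1.23 in muscle (SE 0.23, adjusted p = 0.000283) and 0.98 in hypothalamus (SE 0.35, adjusted p = 0.0261). Its liver call ended without liver input 1, 2 or 3 or liver IP 1, 3 or 5 (-0.62 to -0.84) and with the mouse as a block (-0.38, adjusted p = 0.565). Its hypothalamus call ended without input 1, IP 3 or IP 5 (-0.89 to -0.98) and with that block (-0.96, adjusted p = 0.0847).

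Over the family the ratio was called lower for 7 of 8 strands in each tissue, or 6 of 7 sequences. Of all hairpins tested, 29.9% of 164 were lower in brown fat, 24.1% of 112 in liver, 22.3% of 148 in muscle and 28.5% of 193 in hypothalamus. The strands' median was -2.78 in brown fat, -2.63 in liver, -3.15 in muscle and -3.56 in hypothalamus, and that of all hairpins 0.34, 0.65, 0.36 and -0.24. Hairpins of other families whose 3p strand is also the minor one had medians of 1.48, 1.08, 1.07 and 0.25 in the same tissues, with 36 of 81 higher and 15 lower in brown fat. The IP shares lay below all input shares for 7 strands in brown fat (26.2% of hairpins), 6 in liver (22.3%), 7 in muscle (24.3%) and 7 in hypothalamus (24.9%). Other passengers of the family moved the same way where they could be tested: let-7c-1-3p, let-7g-3p and miR-98-3p were lower against their guides in brown fat, muscle and hypothalamus, and let-7c-1-3p in liver. Several of these calls rest on few counts. let-7g-3p had 9.5 expected counts in the muscle inputs, 39.6 in the hypothalamus inputs and 0 in the IPs of both. miR-98-3p had 14.8 in the muscle inputs and 0.75 in the IPs, and let-7c-1-3p 11.5 in the liver inputs and 0 in the IPs. The ratio was unscaled, and without hypothalamus input 4 the same count of 7 was lower in hypothalamus.

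**Figure D3:**
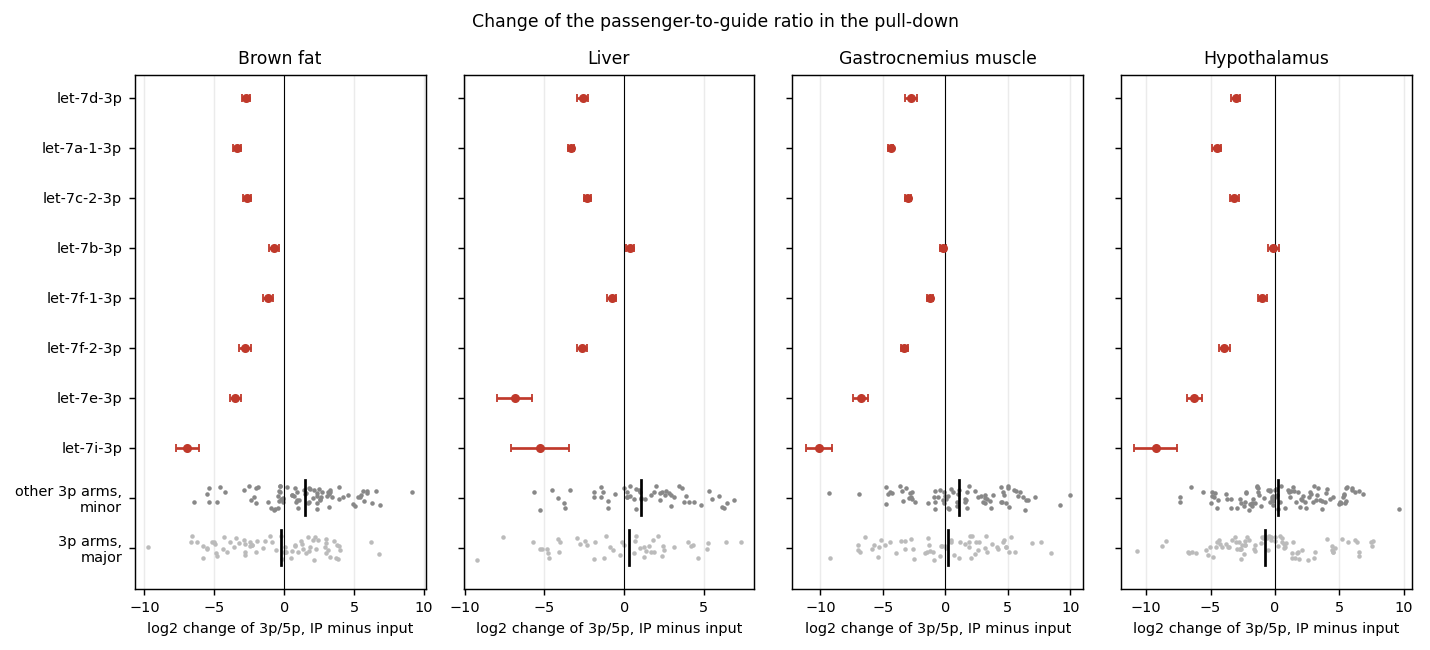
Log2 change of the 3p to 5p ratio, IP minus input, for each let-7 passenger strand (red points, bars show 1 SE) and for other hairpins (grey points, vertical bars mark the median), split by whether the 3p arm is the minor or the major one. let-7b-3p sits near 0, at -0.73 in brown fat, 0.38 in liver, -0.17 in muscle and -0.12 in hypothalamus, and most other members sit to the left. Values of let-7i-3p in liver, muscle and hypothalamus and of let-7e-3p in liver rest on IPs with 0 rounded counts, and their size depends on the prior count.

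Within the family, then, the passengers did not keep their proportions. The ratio of let-7b-3p to let-7a-1-3p was 1.06, 1.61, 1.06, 1.10 and 1.10 in the brown fat IPs, against 0.355, 0.300, 0.218, 0.269 and 0.294 in the inputs. It was 1.24 to 1.65 in the liver IPs and 0.175 to 0.321 in the inputs, 1.18 to 1.67 in the muscle IPs and 0.132 to 0.229 in the inputs, and 1.80 to 5.03 in the hypothalamus IPs and 0.126 to 0.308 in the inputs. No IP overlapped an input in any tissue. The ratio of let-7f-1-3p to let-7a-1-3p separated the groups too, at 0.578 to 0.870 in the brown fat IPs and 0.164 to 0.221 in the inputs, and at 0.360 to 0.898 in the hypothalamus IPs and 0.128 to 0.160 in the inputs. The ratio of let-7f-2-3p to let-7a-1-3p overlapped in each tissue, with 0.279 to 0.467 in the brown fat IPs and 0.252 to 0.445 in the inputs, 0.220 to 0.258 in the liver IPs and 0.250 to 0.438 in the inputs, and 0.224 to 0.392 in the muscle IPs and 0.194 to 0.361 in the inputs. In hypothalamus it was lower on average, at 0.274 ± 0.134 in the IPs and 0.518 ± 0.146 in the inputs (SD, n = 5 each), with ranges of 0.0978 to 0.427 and 0.320 to 0.660. let-7b-3p and let-7f-1-3p are the strands that carry U16C and U20C against let-7a-1-3p, and let-7f-2-3p has neither. let-7d-3p also carries U16C, and let-7i-3p, which nearly vanished from the IPs, carries U16C and U20G. The match of sequence and ratio for let-7b-3p and let-7f-1-3p was seen after the values and was not tested. Ratios of let-7d-3p and let-7e-3p to let-7a-1-3p were also taken and are not shown, so those given are a selection.

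**Figure D4:**
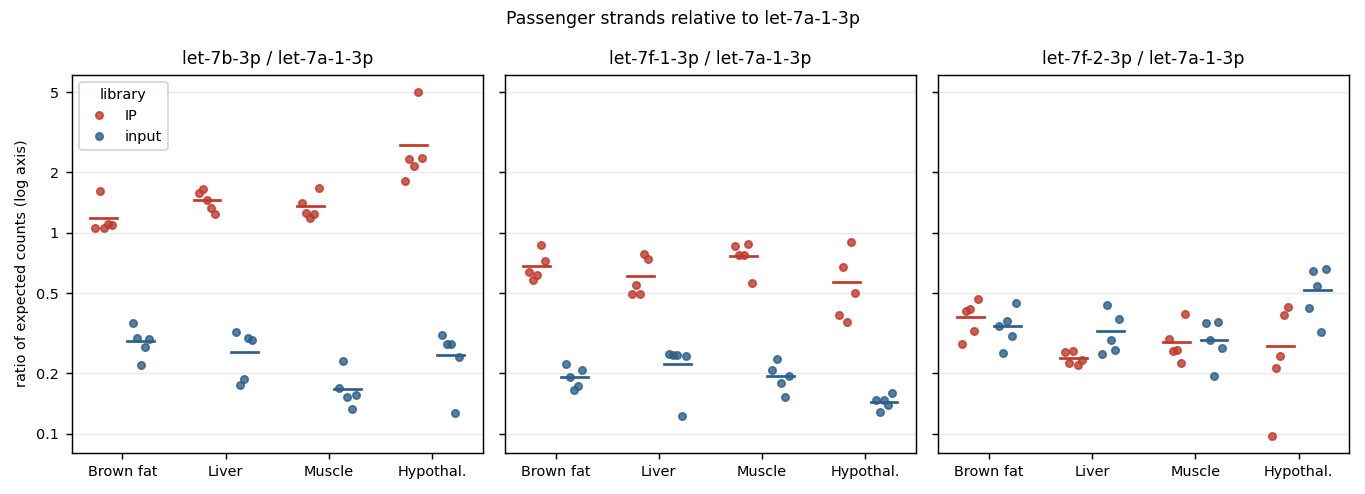
Ratio of the expected counts of let-7b-3p, let-7f-1-3p and let-7f-2-3p to those of let-7a-1-3p in each library (points, log axis), IP in red and input in blue, with group means as bars. The first and second ratios are higher in every IP than in any input of the same tissue, and the third overlaps in each tissue, with a lower mean in the hypothalamus IPs (0.274) than in the inputs (0.518).

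Whether the pull-down changed the strands more in brown fat, where Cre is driven, than in a remote tissue was tested as a difference of log2 fold changes. Against liver 0 of the 7 strands tested differed at an adjusted p under 0.05 in edgeR (8.44% of 308 entries did), and 0 had an unadjusted p under 0.05. Against muscle 5 strands of 8 had a smaller rise in brown fat (8.33% of 324 entries lower), or 4 of 7 with the shared sequence taken once. let-7b-3p differed by -1.99 (SE 0.37, adjusted p = 0.000695, edgeR) and was called under all 25 alternatives. let-7d-3p at -1.40, let-7f-1-3p at -1.21, let-7a-1-3p at -1.01 and let-7c-2-3p at -1.0 were called in 12, 8, 6 and 4 of their alternatives, and in 17 of the 20 fits with 1 library left out the count of 5 came down to between 1 and 3. Against hypothalamus let-7b-3p was at -3.02 (SE 0.53, adjusted p = 0.000204, edgeR) and 5 strands of 8, or 4 of 7 sequences, were called lower (32.2% of 422 entries lower), but this direction was not settled. In 17 of the 20 fits with 1 library left out, all 5 strands turned to a positive difference, with let-7b-3p at 0.09 to 0.63. Some turned differences were themselves called, such as let-7f-1-3p at 1.87 without hypothalamus IP 2 (adjusted p = 0.00546, edgeR). Those of let-7d-3p were not called. TMM scales every library to 1 chosen library, and let-7b-3p was at -2.89 to -3.11 where that library was a hypothalamus IP (also without brown fat input 4, hypothalamus input 3 or brown fat IP 4) and positive where it was a brown fat input. The comparisons share the brown fat libraries.

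Between the inputs of different tissues, 31 of 48 contrasts of the 8 strands passed the threshold, with let-7a-1-3p and c-2-3p counted separately. Their direction also depended on the scaling. Among all 444 entries, 240 were not called in brown fat against liver, 266 in brown fat against muscle and 201 in liver against muscle. For hypothalamus, 71 were not called against brown fat, 85 against liver and 75 against muscle. The strands not called were 7, 3, 2, 2, 1 and 2 of 8 in the same order. Hypothalamus against brown fat had 6 strands lower (35.1% of 444 entries lower), among them let-7f-1-3p at -1.63 (SE 0.24, adjusted p = 2e-06, edgeR) and let-7d-3p at -1.39 (SE 0.23, adjusted p = 9.79e-06). Hypothalamus against liver had 6 lower and let-7e-3p higher at 0.99 (32% lower, 48.9% higher), and that last call ended with the mouse as a block (0.72, adjusted p = 0.0925). Hypothalamus against muscle had 5 lower and let-7e-3p higher at 1.57 (31.1% lower, 52.0% higher). With total counts 5 of these strands turned positive against liver and 5 against muscle, while let-7e-3p stayed higher. Brown fat against muscle had 5 strands higher (22.7% of entries), with let-7b-3p at 1.26 and let-7e-3p at 1.19, and the calls of let-7a-1-3p (0.62, adjusted p = 0.0679) and c-2-3p (0.62, adjusted p = 0.0694) ended under the block. Liver against muscle had 5 higher (27.5%) and let-7i-3p lower at -2.06 (27.3%), where let-7f-1-3p lost its call under the block (0.82, adjusted p = 0.0706). Brown fat against liver had let-7i-3p higher at 1.39 (26.4%), a call lost without brown fat input 5 (1.10) or liver input 1 (1.24) or 5 (1.13) and under the block (0.63, adjusted p = 0.359).

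The passenger share was also compared between tissues. Of 48 contrasts of the ratio among the inputs, 6 were called, all of them lower in hypothalamus, and 11 were called without brown fat input 1. Between brown fat and liver (9.13% of hairpins called), brown fat and muscle (15.4%) and liver and muscle (16.2%) no strand passed the threshold in edgeR. let-7c-2-3p was lower against brown fat by 1.15 (SE 0.22, adjusted p = 0.000502, edgeR; 14.9% of 241 hairpins lower), against liver by 1.23 (SE 0.23, adjusted p = 0.000811; 5.39%) and against muscle by 1.23 (SE 0.23, adjusted p = 0.000201; 8.30%). Its reads are those of let-7a-1-3p, whose own ratio was not called in any pair, and the let-7c guide is also made from another hairpin. let-7f-1-3p was lower against brown fat by 1.19 and against muscle by 0.95, and let-7e-3p against brown fat by 0.80. Those 3 calls ended with the mouse as a block in limma (adjusted p = 0.0528, 0.0703 and 0.0739 in that order). The let-7f-1-3p call against muscle also ended without muscle input 2 or 5 or hypothalamus input 5, and that of let-7e-3p without brown fat input 2 or 5 or hypothalamus input 5.

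Across the 40 libraries, the entries whose log2(CPM + 1) tracked let-7d-3p most closely, outside the let-7 family, were miR-125a-5p (Pearson r = 0.85), miR-676-3p (0.80), miR-1843a-3p (0.78), miR-320-3p (0.74) and miR-1843b-3p (0.73), of 367 entries with a mean of at least 10 CPM. Of the family's passengers let-7b-3p followed it at 0.74, let-7f-1-3p at 0.69 and let-7a-1-3p at 0.65, while let-7e-3p was at 0.26 and let-7i-3p at -0.21. These are descriptions over libraries that share tissue, type and depth.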

How the data were processed

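The authors deposited expected counts, also called estimated counts, for 1894 miRNA entries in 40 libraries, of which 18.9% of positive values were whole within 0.001. The submitters' processing notes name fastp, STAR, featureCounts and the build mm10. Tool versions, the miRNA annotation, strand and how multi-mapping reads were handled were not given in the sources used here. RNA was extracted with Trizol and chloroform and libraries made with a NEBNext small RNA kit, per the labels' protocols.

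Counts were rounded, a change of 0.127% or less per library total, and tested in R 4.3.3 with edgeR 4.0.16 (filterByExpr by group, TMM, quasi-likelihood test, Benjamini-Hochberg over all entries, threshold 0.05, two-sided). Fits used the 10 libraries of a tissue, 20 for differences between tissues, and the 20 inputs for tissue pairs. The ratio test took the 3p and 5p count of each library as 2 columns with a term per library, without scaling, for hairpins with at least 10 counts in at least 5 libraries and in each arm. limma 3.58.1 on log2 ratios (pseudocounts 0.5 and 2) and DESeq2 1.42.0 served as alternatives. The scripts were tested on simulated data.

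The numbering pairs the samples through the mouse given in the labels. After group means were removed, correlations within the 19 pairs ran from -0.13 to 0.51 (median 0.11; 10 over 0.1). The mouse block was an alternative.

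The text names all 8 strands, their guides, other let-7 and miR-98 passengers and the 5 entries most like let-7d-3p, the most abundant entry; let-7a-2-3p had at most 8 counts in a group. The members and lists were chosen with earlier results of these data known.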

Additional observations from a re-analysis of the deposited data

Results flagged for a closer look

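Single libraries stood apart from the other 4 of their group in 21 of 124 groups of values examined by Dixon's test. Its rate of about 1 in 20 by chance holds for independent, normal values. These groups are neither, since let-7a-1-3p and c-2-3p share reads and some let-7e-3p groups are 0 in all libraries but 1. The 21 groups are therefore not compared with chance. Muscle IP 5 recurred: let-7d-3p was at 1664 CPM there (next 367.5), let-7b-3p at 163 CPM (next 78.7), let-7a-1-3p at 97.4 CPM (next 62.9), let-7c-2-3p at 92.8 CPM (next 60.3) and let-7f-2-3p at 38.2 CPM (next 16.2), with a let-7f-2-3p share of 0.045% (next 0.0252%). Liver IP 4, with 11928 counts, held let-7d-3p at 796 CPM (next 213) and a share of 8.61% (next 3.06%), and a let-7f-1-3p share of 0.184% (next 0.0825%). Without muscle IP 5 the number of strands called in muscle was 7, as with it, and without liver IP 4 it was 6, as with it.

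Among the inputs, liver input 4 had let-7a-1-3p at 147.5 CPM (next 108.5) and let-7c-2-3p at 147 CPM, and muscle input 5 had them at 40.8 and 40.6 CPM (next 34.96). The let-7f-2-3p share was 0.289% in liver input 2, let-7i-3p was at 108.0 CPM in hypothalamus input 3 (next 33.2), the let-7c-2-3p share was 0.882% in hypothalamus input 5, and the let-7d-3p share was 12.0% in hypothalamus input 4. let-7e-3p had a count in a single IP of 2 groups, at 4.54 CPM and a share of 0.632% in liver IP 1, and at 1.38 CPM and 0.130% in muscle IP 2.

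The change in the pull-down differed between brown fat and muscle, with brown fat smaller, for let-7d-3p (-1.40), let-7f-1-3p (-1.21), let-7a-1-3p (-1.01), let-7c-2-3p (-1.0) and let-7b-3p (-1.99), by the edgeR test of the difference itself. Between brown fat and hypothalamus the differences were -2.55 for let-7d-3p, -1.83 for let-7f-1-3p, -1.84 for let-7a-1-3p, -1.80 for let-7c-2-3p and -3.02 for let-7b-3p. Each of these 5 differences turned positive in 17 of 20 fits without 1 library.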

How the results depend on the processing

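Over single strands, fits without 1 library kept direction and side of the threshold in 1303 results, lost the call in 107, gained one in 6 and turned in 89. Other settings gave 440, 69, 2 and 16. Counts of strands called without 1 library were 7 to 7 (brown fat IP), 3 to 6 (liver IP), 6 to 7 (muscle IP) and 2 to 5 (hypothalamus IP). For the difference from liver, muscle and hypothalamus they ran from 0 to 0, 1 to 5 and 1 to 6, for input pairs from 30 to 33, for the ratio from 7 to 8, 5 to 7, 7 to 7 and 6 to 7 in the 4 tissues, and for input ratios from 4 to 11 (11 without brown fat input 1). The counts for the difference from hypothalamus take in calls of either direction, so they do not show that the direction held.

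With total counts 4 strands were called in the brown fat IP, 2 in liver, 1 for the difference from muscle and 0 for that from hypothalamus. Without the filter it was 4 in brown fat, 3 in liver, 4 in hypothalamus, 1 for muscle and 2 for hypothalamus. RLE scaling gave 3 in liver and 2 for hypothalamus, and limma with pseudocount 2 gave 4 for the liver ratio. The cause was not tested.

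Signs turned with total counts in brown fat (let-7a-1-3p -0.17, c-2-3p -0.20), liver (let-7a-1-3p -0.23, c-2-3p -0.32, f-2-3p -0.76), hypothalamus against liver (let-7d-3p 0.47, a-1-3p 0.24, c-2-3p 0.25, b-3p 0.29, f-2-3p 0.93) and hypothalamus against muscle (let-7i-3p 1.61, d-3p 1.35, f-1-3p 1.41, a-1-3p 1.85, c-2-3p 1.86). The liver ratio of let-7i-3p was 0.83 with pseudocount 2. Without 1 library, let-7f-2-3p in liver ran from -0.09 to 1.07, the hypothalamus ratio of let-7b-3p from -0.36 to 0.07, and the differences from hypothalamus from -2.64 to 1.06 (let-7d-3p), -1.93 to 1.87 (f-1-3p), -1.91 to 1.72 (a-1-3p), -1.86 to 1.77 (c-2-3p) and -3.11 to 0.63 (b-3p).

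The replicate block by mouse left 7, 5, 7 and 2 strands called in the IPs, 0, 5 and 5 for the differences, 27 for input pairs, 7, 5, 7 and 6 for the ratio and 4 for input ratios; beyond those named in the results it ended no other call, and it added 1 among the input pairs and 1 among the input ratios. Depth limits let-7e-3p and let-7i-3p, which had at most 1 count in the liver and muscle IPs.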

Other observations

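The change of each miRNA in the pull-down was set beside its base make-up, and the part of base make-up in the change was not tested. Over the 266 entries with a RefSeq sequence tested in brown fat, Spearman's rho between the log2 fold change and the share of U was 0.06, against -0.46 for A and 0.37 for G. In liver, over 168 entries, rho was 0.15 for U, -0.53 for A and 0.29 for G, in muscle, over 231, it was 0.12, -0.46 and 0.31, and in hypothalamus, over 238, it was -0.04, -0.45 and 0.34. These are across miRNAs, which are not independent replicates.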
